A study of Mus musculus with 12 samples.

Results

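The miR-143 and miR-145 cluster comprises 2 neighbouring microRNA hairpins, and its 4 mature arms, mmu-miR-143-3p, mmu-miR-143-5p, mmu-miR-145a-5p and mmu-miR-145a-3p (written below without the mouse prefix), were taken from the small RNA count tables by name. All 4 arms were found in each table, among 1084 entries for adipose tissue extracellular vesicles (EVs, membrane particles that cells release) and 1158 complete entries for hippocampus. Every mouse was a wild-type male of the strain C57BL/6J. The libraries formed 4 groups of 3, namely EVs and hippocampus of mice on a chow diet, and EVs and hippocampus of mice on a high-fat diet (HFD), each fed for 12 weeks. No source used here gives the adipose depot, the age of the mice or any pooling of animals. The chow hippocampus libraries are columns headed LFD, which were assigned to chow by inference because chow is the only other diet in the labels.

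Both hairpins are known to be cut from a shared primary transcript that is driven by serum response factor and myocardin. They are abundant in smooth muscle cells and pericytes of vessel walls, where miR-145 and miR-143 favour the contractile state, and in fibroblasts. miR-143 has also been linked to fat cell differentiation and, in obese mice, to weakened insulin signalling. Each hairpin yields a 5p and a 3p strand, of which miR-143-3p and miR-145a-5p are regarded as the guide strands that enter silencing complexes.

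The miRNAs whose profile over the 12 libraries lay nearest to that of miR-143-3p came from other loci. They are shown with the seed (bases 2 to 8) in capitals. Sequences of the cluster's own arms were not at hand, so whether reads were shared with them was not tested.
miR-181d-5p: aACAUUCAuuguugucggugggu
miR-126a-3p: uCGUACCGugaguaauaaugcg
miR-100-5p: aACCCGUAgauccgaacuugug
miR-204-5p: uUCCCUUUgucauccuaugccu
miR-181b-5p: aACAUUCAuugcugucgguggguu
The sequences are those of RefSeq for GRCm38.p6, which held all 10 of the miRNAs named as neighbours. miR-181d-5p and miR-181b-5p share a seed, and the other sequences shown do not. Distance was the root mean square difference of log2(CPM + 1) centred over 12 libraries, among 247 other miRNAs with at least 10 CPM in both sample types. It was 0.30 for miR-181d-5p, 0.47 for the endothelial miR-126a-3p, 0.51 for miR-100-5p, 0.55 for miR-204-5p and 0.59 for miR-181b-5p, against a median of 1.47 over all candidates. The arms of miR-145a were farther away, and miR-143-5p, below 10 CPM in hippocampus, was not among the candidates. miR-145a-5p stood in place 130 (distance 1.52) and miR-145a-3p in place 236 (distance 3.75). For miR-145a-5p the nearest were miR-19b-3p (0.41), miR-425-5p (0.47), let-7b-5p (0.51), let-7c-5p (0.52) and miR-30a-5p (0.56). These distances are descriptions, and the 12 libraries behind them differ in sample type, diet and depth.

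In GENCODE M21 (GRCm38) the hairpin of miR-143 lies on chromosome 18 from 61649196 to 61649258 and that of miR-145a from 61647825 to 61647894. Both are on the minus strand, 1301 bases apart and between annotated genes. The long noncoding RNA gene Bvht lies 352 bases from miR-145a on one side, and the long noncoding RNA gene Carmn lies 366 bases from miR-143 on the other.

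Totals ranged from 1825488 to 5941955 counts in EV libraries and from 2331091 to 12874600 in hippocampus libraries, where each HFD library was deeper than each chow library, so that depth and diet cannot be told apart there. Counts per unit of library size (CPM) were scaled by TMM (trimmed mean of M values), within a sample type for diet comparisons and over all 12 libraries for levels set across types. Sums of cell markers used the scaling within a sample type throughout, also where the types stand side by side. On that scale neuronal miRNAs (miR-9-5p, miR-124-3p and miR-128-3p) summed to between 227506 and 408267 CPM in hippocampus. In EVs they summed to between 691 and 2055 CPM, and 2 of the 3 had counts in every EV library. In bulk samples, fewer cells of a type and less RNA per cell cannot be told apart. EV libraries hold RNA of released particles, so marker sums there are not measures of cell number.

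miR-143-3p dominated the cluster in every group, whereas the order of the remaining arms depended on the sample type. It made up 85.6 ± 2.69% of the cluster's counts in chow EVs and 71.7 ± 8.78% in HFD EVs (SD, n = 3), and 99.1 ± 0.69% and 98.9 ± 0.20% in chow and HFD hippocampus. miR-145a-3p followed in EVs, with 11.4 ± 4.08% in chow and 22.9 ± 7.76% in HFD libraries. In hippocampus it held 0.0906 ± 0.0076% and 0.137 ± 0.017%.

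Scaled over all libraries, miR-143-3p was highest in chow hippocampus (20659 ± 8513 CPM), then in HFD hippocampus (12517 ± 1547 CPM), chow EVs (10742 ± 1291 CPM) and HFD EVs (2838 ± 1011 CPM). Neighbouring groups in that order overlapped, except that HFD EVs lay below all others. miR-143-5p, the passenger strand, had a different order, with 36.0 ± 6.70 CPM in chow EVs, 17.8 ± 0.48 in HFD EVs, 7.62 ± 2.23 in HFD hippocampus and 3.66 ± 2.41 in chow hippocampus. Only the hippocampus groups overlapped. miR-145a-5p stood at 332 ± 170 CPM in chow EVs, 181 ± 5.95 in HFD EVs, 121 ± 48.3 in chow hippocampus and 110 ± 30.6 in HFD hippocampus, and the last 3 of these overlapped with their neighbours. miR-145a-3p stood at 1435 ± 569 CPM in chow EVs and 859 ± 186 in HFD EVs, which overlapped, and at 18.5 ± 6.58 and 17.2 ± 1.88 CPM in chow and HFD hippocampus, which overlapped as well.

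**Figure D1:**
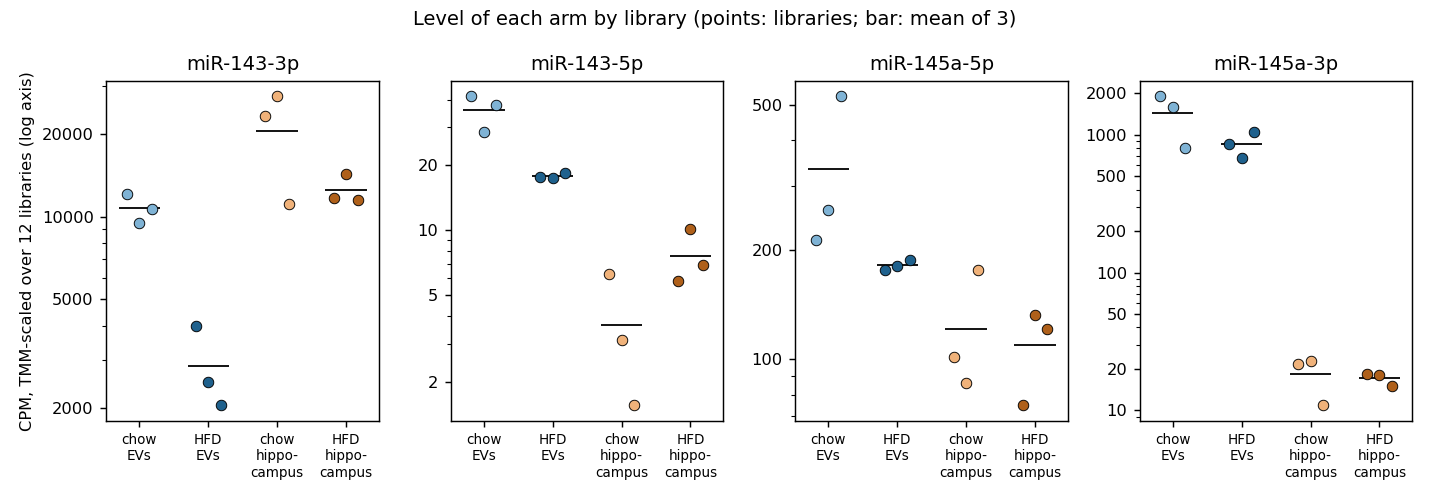
Level of each arm in CPM, TMM-scaled over 12 libraries, on log axes that differ between panels. Points are libraries in replicate order and bars are means of 3. miR-143-3p is lowest in HFD EVs (2838 CPM on average), and miR-145a-3p averages 1435 and 859 CPM in the EV groups and 18.5 and 17.2 CPM in the hippocampus groups.

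In adipose EVs, miR-143-3p fell with HFD and the other 3 arms had lower means without passing the test. miR-143-3p counted 23313, 20671 and 14874 reads in the chow libraries, or 11283, 8249 and 9928 CPM. In the HFD libraries it counted 22983, 4733 and 3803 reads, or 3561, 2187 and 1786 CPM. Every HFD library lay below every chow library. The log2 fold change was -1.97 (SE 0.32, adjusted p = 0.0217, edgeR quasi-likelihood test with Benjamini-Hochberg adjustment over 389 miRNAs), the 5th lowest of all. Omission of chow EV library 1, chow EV library 2, HFD EV library 1 or HFD EV library 2 ended the call (adjusted p = 0.0814, 0.0623, 0.0580 and 0.123). With any library omitted the fold change stayed between -2.30 and -1.61.

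miR-143-5p stood at 38.7, 24.7 and 35.4 CPM in chow EVs (80, 62 and 53 reads) and at 15.8, 15.2 and 16.0 CPM in HFD EVs (102, 33 and 34 reads). The diets did not overlap, and the log2 fold change of -1.07 (SE 0.32) did not pass (adjusted p = 0.0838). miR-145a-5p, the guide strand of its hairpin, had 198, 223 and 491 CPM in the chow EV libraries and 157, 159 and 163 CPM in the HFD EV libraries. These did not overlap by TMM but did as shares of library totals, where chow library 1 (179 CPM) lay below HFD library 2 (188 CPM). Its log2 fold change was -0.93 (SE 0.40, adjusted p = 0.195), and -0.30 (adjusted p = 0.451) without chow library 3, which holds its highest value. The 3p strand had 1778, 1390 and 747 CPM in the chow EV libraries and 766, 592 and 914 CPM in the HFD EV libraries. These overlapped, and the log2 fold change, -0.78 with an SE of 0.38, did not pass (adjusted p = 0.247).

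Of the 4 members, 1 was called lower in HFD EVs, against 1.03% of all tested miRNAs called lower, 3.34% called higher and 4.37% called in either direction. By TMM, 3 members were lower without overlap, against 17% of all tested, and 32.6% of all tested did not overlap in either direction. The median log2 fold change over all miRNAs was -0.13. The whole cluster held 1.03 ± 0.214% of all counts in chow and 0.383 ± 0.0934% in HFD EVs, with no overlap (exact two-sided permutation p = 0.1, the smallest that 3 against 3 can give).

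Among markers of other cells, the sums of endothelial and of myeloid and leukocyte markers separated the diets, and the rest overlapped. Of all single miRNAs tested, 32.6% did not overlap. Endothelial markers (both arms of miR-126a, with counts in every library) summed to between 2425 and 2617 CPM in chow and between 967 and 1036 CPM in HFD EVs. Myeloid and leukocyte markers (miR-223-3p and both arms of miR-142a, all 3 with counts in every library) summed to between 639 and 877 CPM in chow and between 1697 and 4931 CPM in HFD EVs. Singly, edgeR called miR-126a-3p, miR-223-3p and miR-142a-5p (adjusted p = 0.0217, 0.0226 and 0.0483). It did not call miR-126a-5p or miR-142a-3p (adjusted p = 0.177 and 0.0511). Fibroblast markers, 4 of 4 with counts in every library, overlapped, at 2244 to 5804 CPM in chow and 2923 to 4684 CPM in HFD EVs. Red cell markers (4 of 4 present) reached from 1771 to 2101 CPM and from 585 to 1937 CPM, and muscle markers (3 of 3 present) from 243 to 1599 CPM and from 169 to 3777 CPM. The red cell markers went both ways without a call. Their log2 fold changes were -1.35 for miR-486a-5p, -0.14 for miR-451a, 0.92 for miR-144-3p and 1.80 for miR-144-5p. No marker was at 0 in a whole group. The part of these cells in the fall of miR-143-3p was not tested.

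In hippocampus, none of the 4 arms passed the test of HFD against chow, and the strands of miR-143 stood on opposite sides of 0. miR-143-3p had 23656, 24654 and 16244 CPM in the chow libraries and 13919, 15174 and 13215 CPM in the HFD libraries. Its log2 fold change was -0.61 (SE 0.22), with an adjusted p of 0.105. The diets did not overlap on this scale, but did as shares of totals and when scaled over 12 libraries, because of chow library 3. Without that library the value was -0.71 and passed (adjusted p = 0.0237).

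miR-143-5p was sparse in hippocampus, with 29, 16 and 4 reads in chow libraries and 84, 135 and 110 in the deeper HFD libraries. That is 6.38, 2.80 and 2.27 CPM against 6.92, 10.7 and 7.93 CPM. The groups were separate by TMM and overlapped by both other scalings. The log2 fold change was 1.09 (SE 0.42, adjusted p = 0.129), and it passed without chow library 1 (1.71, adjusted p = 0.04998).

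miR-145a-5p had 103, 77.0 and 257 CPM in the chow libraries and 89.2, 141 and 139 CPM in the HFD libraries of hippocampus, with overlap. Its log2 fold change was -0.24 (SE 0.45, adjusted p = 0.748), which turned to 0.53 without chow library 3 and to 0.050 with library totals. The 3p strand had 22.2, 20.3 and 15.9 CPM in the chow libraries and 21.9, 19.2 and 17.2 CPM in the HFD libraries. These overlapped, and the log2 fold change of -0.017 (SE 0.23) had an adjusted p of 0.961 and a sign that varied with the scaling. Thus edgeR called 0 of 4 members, while it called 65 of 552 miRNAs (11.8%), 4.35% higher and 7.43% lower. By TMM, 2 members did not overlap between the diets (1 higher and 1 lower), against 37.3% of all tested (16.3% higher and 21% lower). At an unadjusted p under 0.05 were 2 members, both strands of miR-143, and 164 miRNAs. DESeq2 and limma-voom called none of the 4 arms either. The 4 arms together held 2.12 ± 0.760% of all counts in the chow libraries and 1.52 ± 0.206% in the HFD libraries, with overlap (exact permutation p = 0.4).

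Red cell markers summed to between 247 and 643 CPM in chow and between 79.9 and 162 CPM in HFD hippocampus, and muscle markers to between 473 and 673 CPM and between 194 and 342 CPM. Endothelial markers lay between 4290 and 5187 CPM in chow and between 5610 and 5784 CPM in HFD. Fibroblast markers reached from 44.0 to 63.6 CPM in chow and from 45.4 to 304 CPM in HFD, and myeloid markers from 52.4 to 206 and from 47.4 to 61.9 CPM. All had counts in every hippocampus library. Their part in the values of the cluster was not tested.

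Whether the diet effect differed between EVs and hippocampus was tested over 519 shared miRNAs in a fit of all 12 libraries, in which 5.78% were called (4.82% higher and 0.963% lower). None of the 4 arms passed with edgeR, although all 4 estimates were below 0 and those of both miR-143 strands had an unadjusted p under 0.05. The difference was -2.02 for miR-143-5p (SE 0.62, adjusted p = 0.0640), -1.20 for miR-143-3p (SE 0.48, adjusted p = 0.162), -0.73 for miR-145a-5p (SE 0.57, adjusted p = 0.474) and -0.62 for miR-145a-3p (SE 0.52, adjusted p = 0.517). The median over all miRNAs was 0.23. With DESeq2 both strands of miR-143 passed, at -2.44 for the 5p strand (adjusted p = 6.12e-05) and -1.64 for the 3p strand (adjusted p = 0.00101). With edgeR the 5p strand also passed when 1 of 5 libraries was omitted, namely chow EV replicate 2 or 3 (adjusted p = 0.0356 and 0.0290), HFD EV replicate 3 (0.0468), chow hippocampus replicate 1 (0.00806) or HFD hippocampus replicate 1 (0.0469).

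**Figure D2:**
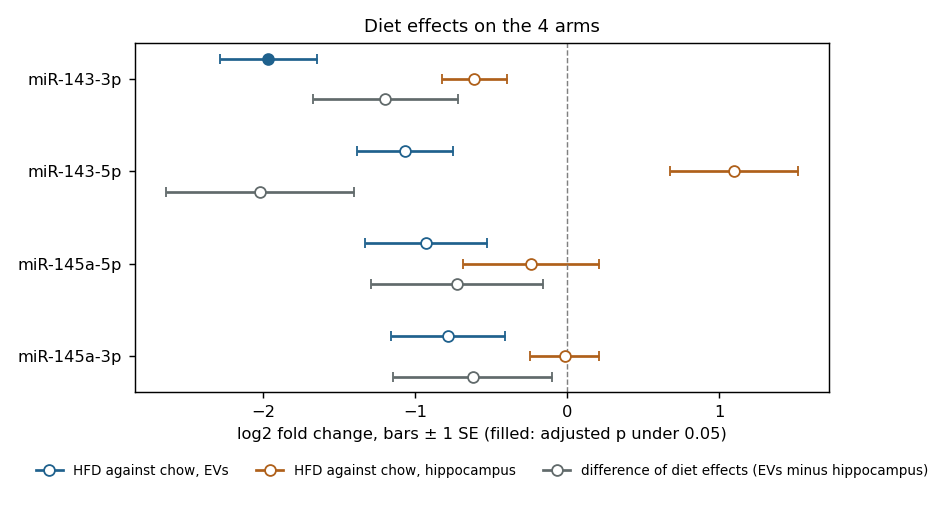
Log2 fold change of each arm between diets in EVs and in hippocampus, and the difference of these effects from the fit of all 12 libraries, with bars of 1 SE. Filled points passed at an adjusted p under 0.05, which only miR-143-3p in EVs did (-1.97), and miR-143-5p lies at -1.07 in EVs and 1.09 in hippocampus.

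Between EVs and hippocampus the cluster's arms moved in different directions. miR-143-3p was lower in EVs, with a log2 fold change of -0.94 in chow (SE 0.34, adjusted p = 0.0182) and -2.14 in HFD mice (SE 0.35, adjusted p = 3.64e-05). It held places 240 and 169 from the lowest among 519 miRNAs, whose medians were -0.52 in chow and 0.068 in HFD mice. The chow value was thus near the middle of all miRNAs. The chow call was lost without chow EV library 2 or 3 or chow hippocampus library 1 or 2 (adjusted p = 0.0825, 0.0919, 0.0779 and 0.132). miR-145a-3p was far higher in EVs, by 6.27 in chow (SE 0.46, adjusted p = 8.05e-09) and 5.64 in HFD mice (SE 0.45, adjusted p = 1.63e-08). These were places 39 and 51 from the top among 519 miRNAs.

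miR-143-5p was higher in EVs by 3.24 in chow (SE 0.47, adjusted p = 1.21e-05) and by 1.22 in HFD mice (SE 0.42, adjusted p = 0.0146). The HFD call was lost with library totals (0.93, adjusted p = 0.0635), without a filter (0.70, adjusted p = 0.162) and without HFD EV library 2 (0.98, adjusted p = 0.0700). miR-145a-5p was higher in EVs of chow mice by 1.45 (SE 0.41, adjusted p = 0.00401), which did not pass without chow EV library 3 (0.96, adjusted p = 0.0568). In HFD mice its value was 0.73 (SE 0.40, adjusted p = 0.107). Hence 4 of 4 arms were called in chow mice and 3 of 4 in HFD mice. The background was 79.4% of all miRNAs in chow mice (34.5% higher and 44.9% lower in EVs) and 81.5% in HFD mice (38.9% higher and 42.6% lower), so that a call in this contrast sets no miRNA apart. Sample type and any difference in how the types were processed cannot be told apart.

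The balance of the strands, a ratio within a library that needs no scaling, was turned between the sample types for miR-145a. In EVs the 3p strand outnumbered the 5p strand in every library. Chow EV libraries held 3673, 3484 and 1119 reads of miR-145a-3p against 410, 560 and 735 of miR-145a-5p, and HFD EV libraries 4946, 1282 and 1945 against 1014, 344 and 348. The 3p strand was thus 8.96, 6.22 and 1.52 times as abundant in chow and 4.88, 3.73 and 5.59 times in HFD EVs. Chow EV library 3 stood nearest to parity.

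In hippocampus the 5p strand of miR-145a outnumbered the 3p strand in every library. The reads were 469, 440 and 453 of the 5p strand against 101, 116 and 28 of the 3p strand in chow, and 1083, 1771 and 1924 against 266, 242 and 238 in HFD. The 5p strand was 4.64, 3.79 and 16.2 times as abundant in chow and 4.07, 7.32 and 8.08 times in HFD hippocampus, with chow library 3 highest.

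The log2 5p to 3p ratio of miR-145a differed by -4.85 between EVs and hippocampus, a 28.8-fold lower ratio in EVs (exact two-sided permutation within diets, p = 0.005, the smallest that 6 against 6 libraries so permuted can give). It was -4.84 in chow and -4.86 in HFD mice, and between -5.23 and -4.53 with any library left out. The miR-143 hairpin shifted the other way. Its 3p strand prevailed everywhere, but the 5p to 3p ratio was higher in EVs by 3.87 on the log2 scale, a 14.7-fold difference (exact permutation p = 0.005). Both of these tests between the sample types were chosen after the counts were seen.

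The ratios were ranked over 133 hairpins with both arms listed and a mean of at least 10 CPM for the arms summed, in each sample type. A single arm could lie lower, as miR-143-5p did in hippocampus, where the added 0.5 counts weigh more. Among these hairpins, miR-145a had the 2nd most negative difference between EVs and hippocampus and miR-143 the 6th most positive, around a median of -0.21. Some hairpins in this ranking are not independent of each other. Between the types in chow mice, miR-9-5p and miR-9b-3p stood at -10.325 and -10.331, and miR-126a-5p and miR-126b-3p at -1.627 each. The libraries of the types did not overlap for 51 of the 133 (38.3%). The dominant strand was turned in every library for 5 of them (3.76%), which, named after their values were seen, were miR-145a, miR-335, miR-338, miR-369 and miR-3065. Of these, miR-338 and miR-3065 are not independent cases. In chow mice miR-338-3p and miR-3065-5p had the same log2 fold change between the types (-6.16, SE 0.62).

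**Figure D3:**
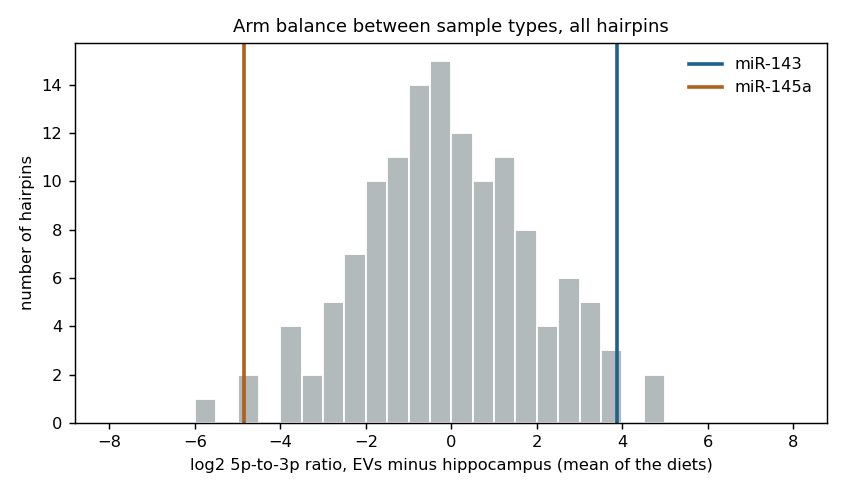
Distribution over 133 hairpins of the difference in log2 5p to 3p ratio between EVs and hippocampus, averaged over the diets. The vertical lines mark miR-145a at -4.85 and miR-143 at 3.87, near opposite ends.

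With diet, the strand balance of miR-143 moved toward the 5p strand in both sample types, whereas that of miR-145a did not separate the diets. In EVs, 291, 333 and 281 reads of miR-143-3p were counted per read of miR-143-5p in chow libraries and 225, 143 and 112 in HFD libraries. In hippocampus the numbers were 3706, 8806 and 7149 in chow and 2013, 1415 and 1666 in HFD libraries. Neither sample type showed overlap between the diets.

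The log2 5p to 3p ratio of miR-143 was higher with HFD by 0.98 in EVs and by 1.80 in hippocampus (exact permutation p = 0.1 for each, the smallest possible). Of the 133 hairpins, 10.5% were higher without overlap in HFD EVs and 18% in HFD hippocampus. Both held for 5 hairpins (3.76%), which were miR-143, miR-148a, miR-28a, miR-410 and miR-98, named after their values were seen. The chow hippocampus values rest on 29, 16 and 4 reads of the 5p strand, and with a pseudocount of 5 instead of 0.5 the hippocampal difference was 1.34. For miR-145a the log2 ratio differed by -0.086 in EVs (exact permutation p = 1) and by -0.072 in hippocampus (exact permutation p = 0.9). In EVs the sign turned on omission of the third chow library (0.68) or the third HFD library (0.044), and that in hippocampus without chow library 3 (0.57) or HFD library 1 (0.23).

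The guide strands of the hairpins, compared within each library, were not held in a fixed proportion. miR-143-3p was 56.9, 36.9 and 20.2 times as abundant as miR-145a-5p in chow EVs and 22.7, 13.8 and 10.9 times in HFD EVs. In hippocampus it was 229, 320 and 63.1 times as abundant in chow and 156, 108 and 95.3 times in HFD libraries. The log2 ratio differed with HFD by -1.21 in EVs (exact permutation p = 0.2) and by -0.51 in hippocampus (exact permutation p = 0.6), with overlap in both. Without chow library 3 of hippocampus the latter was -1.21. Between EVs and hippocampus it differed by -2.61 (exact permutation within diets, p = 0.005), and every EV library lay below every hippocampus library. That test was also chosen after the counts were seen, and the share of other miRNA pairs without overlap was not counted. Of all single miRNAs, 79.4% in chow and 81.5% in HFD mice were called between the types.

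**Figure D4:**
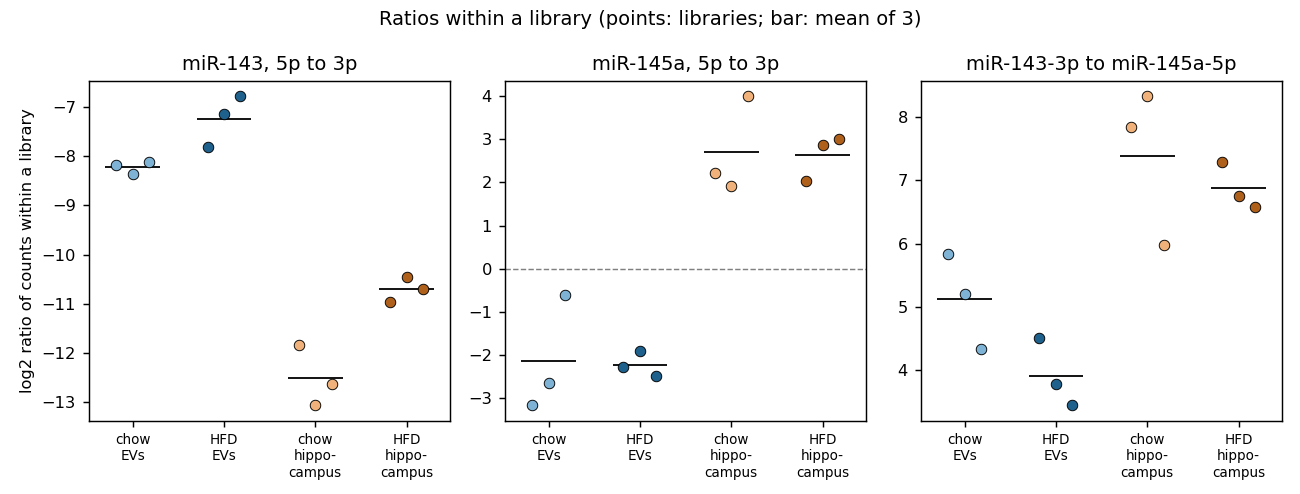
Log2 ratios of counts within each library for the strands of miR-143, the strands of miR-145a and the guide strands of both hairpins. Points are libraries in replicate order and bars are means of 3. The dashed line in the middle panel marks equal strands, with all EV libraries below it and all hippocampus libraries above it.

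Other miRNAs linked to the cells and processes of the cluster were read from the same fits, as counts and medians that were not tested against the cluster. Of 14 tested miRNAs studied in smooth muscle phenotype, 2 rose and 0 fell in HFD EVs, against 3.34% and 1.03% of all tested miRNAs, at a median log2 fold change of 0.43 (-0.13 over all). These were miR-21a-5p, which promotes growth of many cell types (42292 ± 9240 CPM in chow and 107305 ± 5286 CPM in HFD EVs), with a log2 fold change of 1.34 and an adjusted p of 0.0217, and miR-146a-5p, which restrains NF-kB signalling, at 1.28 (adjusted p = 0.0364). The calls of both lists in EVs were lost when any 1 of the same 4 libraries as for miR-143-3p was omitted. The remaining abundant members were miR-10a-5p at -0.58 (adjusted p = 0.168) and miR-26a-5p at 0.43 (adjusted p = 0.327). In hippocampus 2 of 15 rose, namely miR-22-3p (1.21) and miR-221-3p (0.98), and 2 fell, namely the muscle miRNA miR-1a-3p (-1.23) and miR-146a-5p (-1.20), at a median of -0.43 (-0.13 over all). Over all miRNAs 4.35% rose and 7.43% fell there. Not called there were miR-10a-5p at -1.98, miR-21a-5p at -0.44 and miR-26a-5p at 0.52.

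Of 13 tested adipogenesis miRNAs in EVs, miR-335-5p rose (1.76) and miR-193a-3p fell (-1.74), at a median of -0.33, beside 4.37% of all miRNAs called. miR-27a-3p, miR-27b-3p, miR-30a-5p and miR-378a-3p stood at 0.39, 0.74, -0.59 and -0.33 without a call. Of 12 tested in hippocampus, miR-107-3p rose (0.87) and miR-193b-3p fell (-1.76), at a median of -0.10, beside 11.8% of all miRNAs called. There miR-27a-3p, miR-27b-3p, miR-30a-5p and miR-378a-3p, named for their level in EVs, stood at 0.77, 0.28, -0.95 and -0.063. Among 5 tested fibroblast miRNAs of the miR-199 and miR-214 families, 0 were called in EVs by edgeR, DESeq2 or limma-voom and 1 had an unadjusted p under 0.05, at a median of 0.28. Values were 0.28 for miR-199a-3p, -0.41 for miR-199a-5p, -1.83 for miR-199b-5p and 0.54 for miR-214-3p. In hippocampus the same tools called 0 of 4, with 0 at an unadjusted p under 0.05, at a median of 1.20, and miR-199a-3p averaged 27.3 ± 3.78 CPM with chow and 76.8 ± 79.3 CPM with HFD (SD, n = 3).

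In the difference of diet effects, miR-21a-5p (1.80), miR-146a-5p (2.54) and miR-335-5p (2.59) were called on the positive side, as were 4.82% of all miRNAs. The medians were 1.08 for the smooth muscle phenotype list and 0.16 for the adipogenesis list, and 0.23 over all. Of 5 fibroblast miRNAs, all below 0 and at a median of -1.12, edgeR called 0, DESeq2 called 1 and 1 had an unadjusted p under 0.05. Between EVs and hippocampus all 5 fibroblast miRNAs were higher in EVs with either diet, at medians of 5.91 in chow and 5.41 in HFD mice. Of the 15 smooth muscle phenotype miRNAs 7 were higher and 4 lower in EVs of chow mice, and of the 14 adipogenesis miRNAs 7 were higher and 2 lower, at medians of 0.97 and 1.56. In HFD mice the counts were 8 higher and 1 lower, and 9 higher and 3 lower, at medians of 1.57 and 2.21. Over all miRNAs in these contrasts, 34.5% were higher and 44.9% lower in chow mice, at a median of -0.52, and 38.9% and 42.6% in HFD mice, at a median of 0.068. The calls of the smooth muscle phenotype and adipogenesis lists in chow mice, 11 of 15 and 9 of 14, thus stood beside 79.4% of all.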

How the data were processed

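Small RNA was sequenced from 12 libraries. The values are read counts per mature miRNA as the authors deposited them, 1 column per library, per the file headers, with no normalisation. The submitters' processing notes list Bowtie. No source used here states the genome build, annotation, strand setting or any filter. Of the hippocampus entries, 5 were blank for HFD and were left out, and 1 column of per-sample values, headed HFD, matched no sample and was not used. Whether the libraries stem from separate animals is not in the labels. The spread behind each p-value is that between these samples and may be technical.

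Counts were fitted with edgeR 4.0.16 in R 4.3.3 (filterByExpr, TMM, robust quasi-likelihood F test, two-sided, Benjamini-Hochberg adjustment over all miRNAs tested, called at an adjusted p under 0.05). All 4 members passed the filter in all 5 comparisons. Diet comparisons used the 6 libraries of a type, and the others all 12 over the 852 shared names. Ratios within a library used counts plus 0.5, with exact permutation tests (scipy 1.17.1). A count of 3, the floor, equals between 0.216 and 2.00 CPM in a library. DESeq2 1.42.0, limma-voom (limma 3.58.1), other scalings, no filter and omission of each library were alternatives. Scripts were tested on simulated counts.

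Same-numbered libraries were not treated as paired. Between the diets, the correlations of their deviations from the group means were 0.0096, -0.18 and -0.19 in EVs and 0.070, -0.35 and 0.091 in hippocampus. Whether EV and hippocampus libraries of the same number came from the same mouse was not examined. Comparisons between the types treated them as independent.

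The members and lists were chosen with earlier results of these data known. The lists held 6 fibroblast, 15 smooth muscle phenotype and 14 adipogenesis miRNAs. Named from each were the 4 tested members of highest mean in EVs and those called with diet or in the difference of diet effects. Those called between EVs and hippocampus, which the same rule also covered, are given as counts. Named as neighbours were the 5 miRNAs nearest in profile to either guide strand.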

Additional observations from a re-analysis of the deposited data

Results flagged for a closer look

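miR-143-5p was flagged because its diets were separate in opposite directions in EVs and hippocampus. Every HFD EV library lay below every chow EV library, and every HFD hippocampus library above every chow hippocampus library. Of all tested miRNAs, 17% were lower without overlap in EVs and 16.3% higher without overlap in hippocampus. The share with both was not counted. The difference of diet effects for miR-143-5p was -2.02 on the log2 scale, the 25th lowest of 519, and did not pass (adjusted p = 0.0640, edgeR). It passed under 4 of 8 other settings and with any 1 of 5 libraries omitted (adjusted p = 0.00806 to 0.0469). In hippocampus the separation was narrow, 6.38 against 6.92 CPM for the nearest libraries, and it held by TMM within the type but by neither of the other scalings.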

How the results depend on the processing

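Under 9 alternative settings for miR-143-3p in EVs, the fall kept its call (log2 fold change -2.02 to -1.66, adjusted p up to 0.0294). With the replicate block, for numbers not treated as pairs elsewhere, it was -2.02, and EV calls over all miRNAs went from 17 to 9. EV calls numbered 38 with library totals, 29 with DESeq2 size factors, 55 with DESeq2, 56 without a filter, 38 in the fit of all 12 libraries, and 0 to 21 with a library left out. Hippocampus calls (65) numbered 33 with totals, 109 with DESeq2, 35 with the replicate block, 29 in the fit of 12 libraries and 8 to 123 with a library left out. Calls of the difference of diet effects (30) were 46 with DESeq2 size factors, 76 with DESeq2 and 15 to 42 with a library left out. Scaling by library totals shifted the median over all miRNAs (log2) from -0.13 to 0.16 in EVs and from -0.13 to 0.032 in hippocampus. Between sample types it shifted from -0.52 to -0.83 in chow and from 0.068 to -0.21 in HFD mice.

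The difference of diet effects passed for miR-143-3p with DESeq2 size factors (-1.64), DESeq2 (-1.64) and no filter (-1.53). For miR-143-5p it passed with these (-2.45, -2.44 and -2.37) and without miR-148a-3p (-2.19), and ranged from -2.72 to -1.89 with a library left out. In hippocampus miR-145a-3p turned to 0.10 with totals, 0.062 with DESeq2 size factors, 0.051 with DESeq2, 0.15 without a filter and 0.0019 without miR-148a-3p, and miR-145a-5p to 0.050 with totals. The strand ratio of miR-145a in hippocampus turned to 0.0019 with a pseudocount of 5. Between types in HFD mice, miR-143-5p lost its call with totals (0.93) and no filter (0.70). The cause of these changes was not tested.

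With 1 library left out, the ranges in EVs were -2.30 to -1.61 for miR-143-3p and -0.60 to 0.68 for the strand ratio of miR-145a. In hippocampus they were -0.71 to -0.40 for miR-143-3p, 0.96 to 1.71 for miR-143-5p, -0.47 to 0.53 for miR-145a-5p, -0.066 to 0.20 for miR-145a-3p and -0.47 to 0.57 for the strand ratio of miR-145a. Between types they were -1.06 to -0.59 for miR-143-3p and 0.96 to 1.94 for miR-145a-5p in chow, and 0.95 to 1.496 for miR-143-5p in HFD mice. A nested replicate block could not be fitted for contrasts between types. Depth limits miR-143-5p most, at 4 to 29 reads in chow hippocampus libraries; intervals and floors cover counting error only.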
